A study of Drosophila melanogaster with 5 samples.

Results

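Genes of Drosophila blood cells were examined in pupal heads of the mutant strain otd-uvi and of the wild-type strain Canton S. The set held 10 genes, listed by name: the phagocyte genes NimC1, Hml, He, crq, Pxn and srp, the crystal cell genes PPO1 and PPO2, and the collagen IV genes Col4a1 and vkg of the basement membrane. A probe set, the group of short probes that reports a transcript on an Affymetrix array, was taken where the array annotation named 1 of these genes and no other. This gave 10 probe sets for 9 genes, out of 13966 probe sets tested and 10844 genes with a probe set of their own; PPO2 had 2 probe sets, and He was not analysed here. The otd-uvi group (3 arrays) carried what the labels call an eye-specific mutant allele of otd, also named oc, which encodes a homeodomain transcription factor. The Canton S group (2 arrays) was wild type. Both consisted of heads dissected 80 h after pupa formation, with 15 to 20 heads in each RNA extraction and 1 array per extraction. Each group was a single strain, so the allele and the rest of the genetic background cannot be told apart in any value below, and the labels do not give the sex of the heads.

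Blood cells of the fly, the hemocytes, are of 3 main kinds. Plasmatocytes are macrophages that engulf bacteria and dying cells, and in pupae they clear tissue that is broken down during metamorphosis. Crystal cells store prophenoloxidases, which are turned into the enzymes that make melanin at wounds, and lamellocytes, seen mostly after parasitism, wrap large objects. Hemocytes also secrete collagen IV and other parts of the basement membrane, the sheet of matrix under epithelia and around muscle and nerve, a task that they share with the fat body. In whole heads, fewer hemocytes and less RNA per hemocyte cannot be told apart.

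Values are MAS5 signals, and differences are otd-uvi minus Canton S on the scale log2(signal + 8), which understates changes of dim probe sets. The median signal was 41.8 to 43.1 on the otd-uvi arrays and 39.96 and 41.3 on the Canton S arrays. A background level was set by 8 probe sets for mouse and yeast transcripts, called the controls here. The brightest of them had signals of 22.9, 11.2 and 16.2 on otd-uvi arrays 1, 2 and 3, against 9.30 and 9.13 on Canton S arrays 1 and 2, and a probe set below it is called under the controls. Dim probe sets as a whole were higher in otd-uvi: when all were ranked into deciles by mean signal, the third had a median of 0.28 and the ninth of -0.13, with 0.047 over all. RNA integrity was read from housekeeping probe sets at both ends of a transcript, whose 3-prime over 5-prime ratio rises as RNA degrades. On the log2 scale it averaged 1.63 ± 0.285 in otd-uvi (SD, n = 3) and 1.39 ± 0.0318 in Canton S (SD, n = 2), with a two-sided p of 0.4 in an exact permutation test that cannot go below 0.1. The mutated gene, oc, had signals of 27.6, 46.8 and 59.8 on the otd-uvi arrays, against 71.7 and 56.4 on the Canton S arrays, with overlapping groups (log2 difference -0.49, SE 0.33, adjusted p = 0.527), so its probe set does not separate the strains.

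Of the 10 probe sets, 1 passed an adjusted p of 0.05 in limma, that of NimC1, which rose in otd-uvi. Over all probe sets 0.773% passed (0.322% higher, 0.451% lower in otd-uvi). Of the 10, 4 had an unadjusted p under 0.05 (NimC1, the brighter PPO2 probe set and Pxn above 0, crq below 0), as did 15.0% of all probe sets. The otd-uvi and Canton S arrays did not overlap for 5 of the 10 (these 4 and Col4a1), and for 34.0% of all probe sets. The median difference of the 10 probe sets was 0.27 and 8 of them were above 0, against a median of 0.047 and 55.2% above 0 for all probe sets. The phagocyte genes had differences of both signs, and the 3 crystal cell probe sets were all above 0. Of these, PPO1 (0.29) and the dimmer PPO2 probe set (0.40) were in a decile whose median was 0.28. The collagen genes Col4a1 (0.25) and vkg (0.086) were in a decile whose median was -0.09. Expression of the set in these heads was not uniform: on Canton S arrays NimC1 was under the controls, and PPO1 was under them on 1 of 2, while the other 8 probe sets were above them on both.

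**Figure D1:**
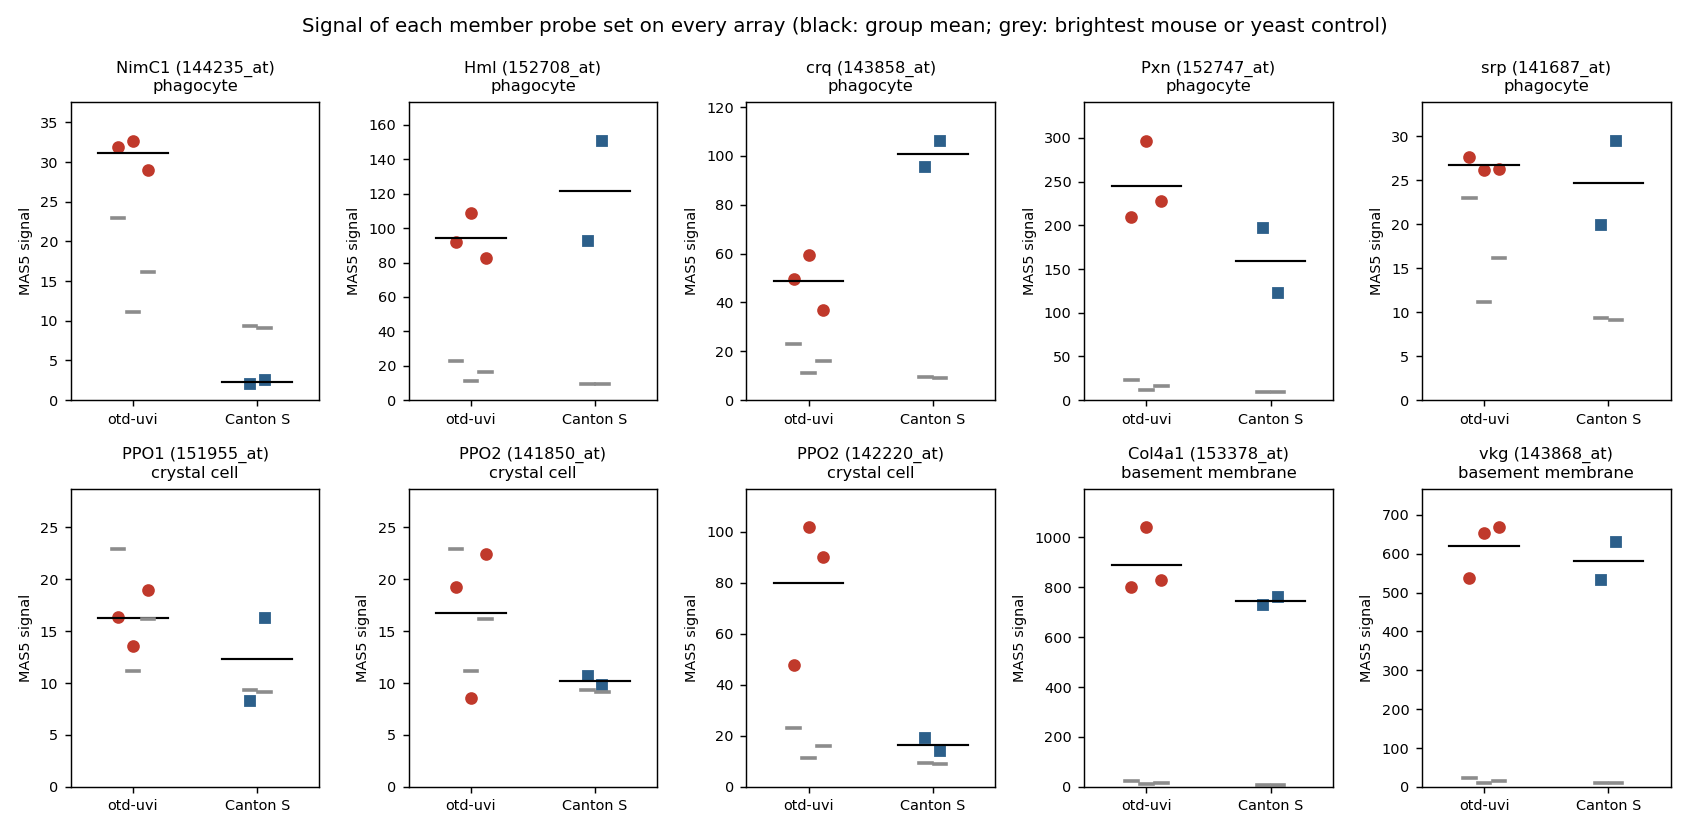
MAS5 signal (linear axis from 0) of each of the 10 probe sets on the 3 otd-uvi arrays (red circles) and the 2 Canton S arrays (blue squares), with group means as black lines and the brightest mouse or yeast control of each array as a grey dash. NimC1 lies at 29.0 to 32.7 in otd-uvi and at 2.05 and 2.48 in Canton S, under the grey dashes, and crq is lower in otd-uvi on every array.

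NimC1 (144235_at) encodes a receptor of plasmatocytes that takes part in the uptake of bacteria. Laboratory stocks are known to differ in whether their plasmatocytes make it. Its signals were 31.9, 32.7 and 29.0 on the otd-uvi arrays, against 2.05 and 2.48 on the Canton S arrays. The 3 otd-uvi values lay within a narrow range and far above both Canton S values. The log2 difference was 1.93 (SE 0.25, 95% interval 1.35 to 2.51, adjusted p = 0.0242), in a decile of mean signal whose median difference was 0.28. Canton S was under the controls. With the brightest control of each Canton S array in place of the gene's own signal, the ratio of otd-uvi to Canton S was 3.38. The otd-uvi signals were not adjusted for the brighter controls on those arrays, so 3.38 is not a lower bound on the ratio of transcripts. NimC1 stood at 1.39, 2.93 and 1.80 times the brightest control on the otd-uvi arrays, against 0.221 and 0.271 times on the Canton S arrays.

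Few probe sets went from background to signal in this way. Of 2802 probe sets under the controls on both Canton S arrays, 56 were above them on all 3 otd-uvi arrays, where the brightest control was higher. The 56 make up 0.401% of all probe sets tested, and 11 of them (19.6%) passed the threshold in limma. NimC1 was among these 56, a set defined by the values themselves. The call was lost without any 1 of the 5 arrays, where the difference was 1.90 to 1.97 and the adjusted p 0.0765 to 0.213. With RNA integrity as a covariate the difference was 1.97 and the adjusted p = 0.114.

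The scavenger receptor gene crq, croquemort, a CD36 relative with which plasmatocytes take up apoptotic cells, had a difference below 0. Its probe set (143858_at) had signals of 49.7, 59.5 and 36.9 on the otd-uvi arrays, against 95.4 and 106 on the Canton S arrays. Every otd-uvi array was below both Canton S arrays. The log2 difference was -0.96 (SE 0.26, 95% interval -1.56 to -0.36, adjusted p = 0.170), so crq did not pass over all probe sets. In 15 other fits the difference was -1.09 to -0.73. Leaving out 1 array could not turn its sign, because the groups do not overlap.

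Pxn, peroxidasin, is an enzyme that plasmatocytes secrete and that crosslinks collagen IV, which ties it to the basement membrane too. Its probe set (152747_at) had signals of 210, 297 and 228 on the otd-uvi arrays, against 197 and 123 on the Canton S arrays. The groups did not overlap, but the lowest otd-uvi array and the higher Canton S array were close. The log2 difference was 0.62 (SE 0.24, 95% interval 0.043 to 1.19, adjusted p = 0.299), and it was 0.29 without Canton S replicate 2 and 0.94 without Canton S replicate 1.

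The 2 other phagocyte genes had overlapping groups. Hml, hemolectin, a large clotting protein and the most used plasmatocyte marker, had signals (152708_at) of 91.9, 109 and 82.4 on the otd-uvi arrays, against 92.5 and 151 on the Canton S arrays. Canton S replicate 2 alone lay above the rest. The log2 difference of Hml was -0.31 (95% interval -0.91 to 0.28, adjusted p = 0.597), and 0.019 without that array. For srp, serpent, the GATA factor that sets blood and fat body fate, the signals (141687_at) were 27.6, 26.2 and 26.2 on the otd-uvi arrays, against 19.8 and 29.5 on the Canton S arrays. All 3 otd-uvi values fell between those of Canton S. The log2 difference of srp was 0.10 (95% interval -0.57 to 0.77, adjusted p = 0.892), and its sign turned under quantile normalization, under cyclic loess and without Canton S replicate 1. These intervals leave room for differences of either sign, and the fit does not show that Hml or srp were equal in the strains.

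**Figure D2:**
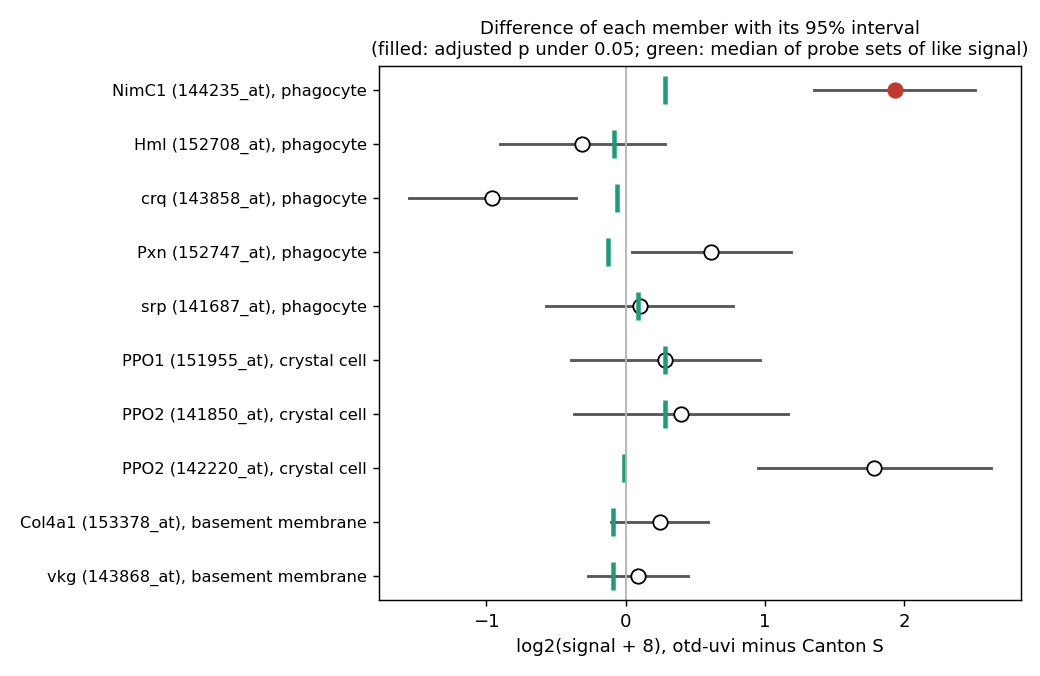
Log2 difference (otd-uvi minus Canton S, log2(signal + 8)) of each probe set with its 95% interval from limma. The filled point passed an adjusted p of 0.05, and green marks give the median difference of all probe sets in the same decile of mean signal. NimC1 at 1.93 and the brighter PPO2 probe set at 1.79 lie to the right of their marks, crq at -0.96 to the left.

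NimC1 lies in a cluster of related receptor genes on chromosome arm 2L. In the reference annotation its neighbours are He on one side and Cyp28a5, a cytochrome P450 gene, on the other, with NimB5 and NimB4 beyond He and NimC2 beyond Cyp28a5. NimC2, another Nimrod receptor, had signals of 92.3, 86.6 and 74.1 on the otd-uvi arrays, against 52.7 and 41.6 on the Canton S arrays, with no overlap. In limma NimC2 was at 0.75 (SE 0.23, adjusted p = 0.219). NimB4, a secreted Nimrod protein, had signals of 138, 149 and 189 on the otd-uvi arrays, against 91.7 and 106 on the Canton S arrays. In limma NimB4 was at 0.63 (SE 0.20, adjusted p = 0.224). NimB5, between He and NimB4, was under the controls on all 5 arrays. Cyp28a5 lay between NimC1 and NimC2 and had the opposite sign. Its signals were 86.5, 97.7 and 76.3 on the otd-uvi arrays, against 137 and 148 on the Canton S arrays, and its log2 difference was -0.67 (SE 0.19, adjusted p = 0.194). None of these neighbours passed the test.

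The other phagocytosis receptors and opsonins on a list of 27 gave no call. Of 19 measured genes none passed and 2 had an unadjusted p under 0.05, NimC2 and NimB4, against 15.0% of all probe sets. The median difference of the list was 0.088 and 12 of 19 were above 0. Of the listed genes the largest difference was that of Tep3, a complement-like protein, at 0.80 (SE 0.44, adjusted p = 0.449), with overlapping groups. In the plot of every array against the Canton S mean, NimC1 stands apart from the rest of this panel, where no other gene has all 3 otd-uvi arrays above 1.

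**Figure D3:**
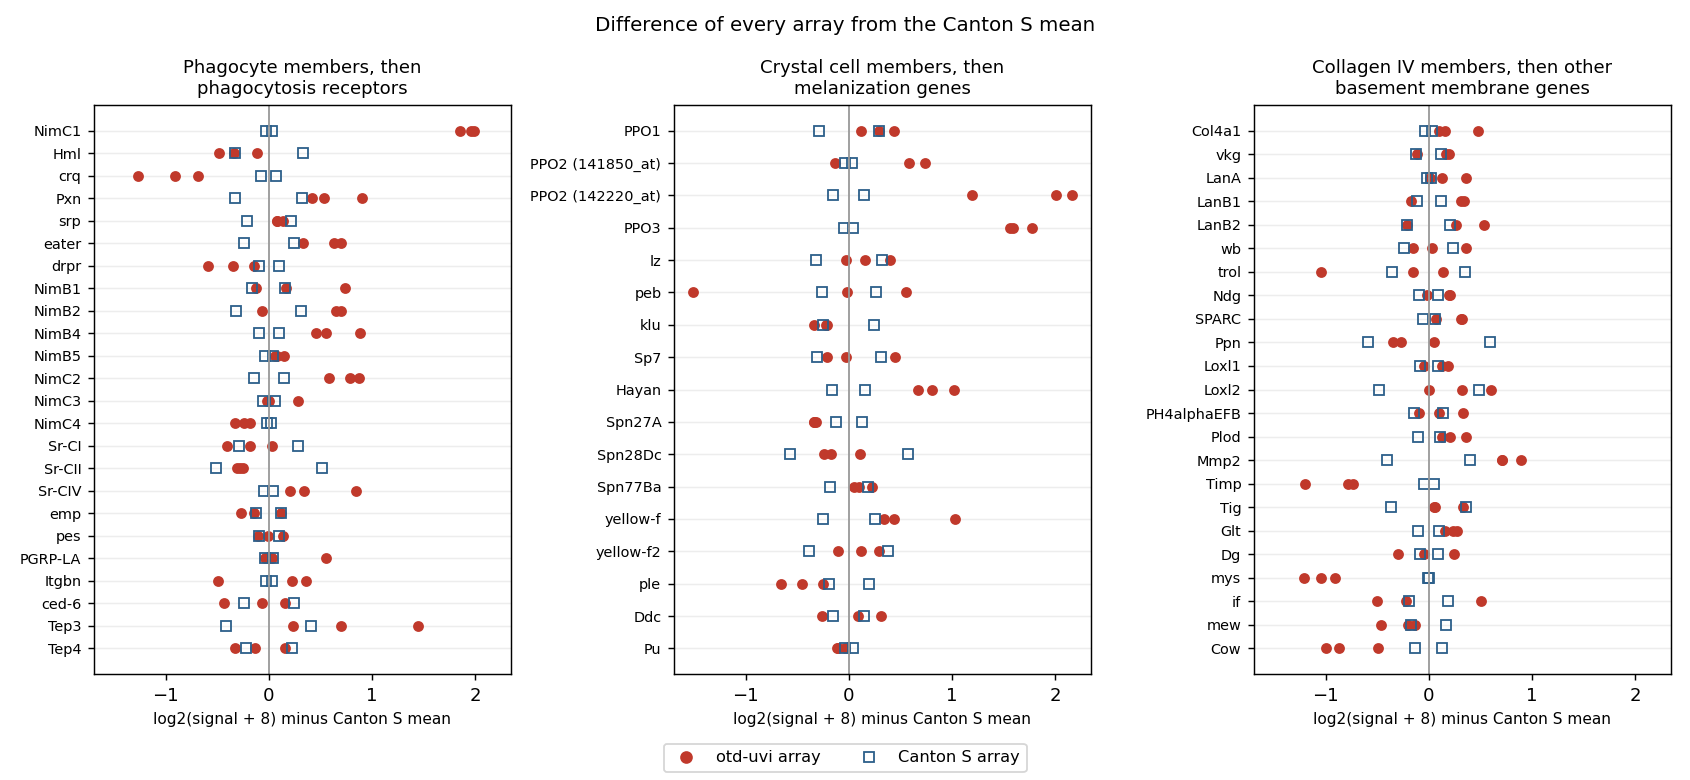
Difference of each array from the Canton S mean (log2(signal + 8)) for the phagocyte, crystal cell and collagen IV genes, each followed by the other measured genes of its list, 1 probe set per gene except PPO2. Red circles are otd-uvi arrays and open blue squares Canton S arrays. All otd-uvi arrays lie above 1 for NimC1, PPO3 and the brighter PPO2 probe set, and mys, Timp and Cow lie below the Canton S arrays.

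Prophenoloxidases are the copper enzymes with which crystal cells melanize, and PPO1 and PPO2 are their main forms. PPO2 had a bright and a dim probe set. The brighter (142220_at) had signals of 47.9, 102 and 90.2 on the otd-uvi arrays, against 19.1 and 14.0 on the Canton S arrays. Every otd-uvi array was above both Canton S arrays, and otd-uvi replicate 1 was the lowest of its strain. The mean signals were 79.9 ± 28.3 in otd-uvi (SD, n = 3) and 16.6 ± 3.58 in Canton S (SD, n = 2), a ratio of 4.82. On Canton S arrays 1 and 2 the signal was only 2.06 and 1.54 times the brightest control. The log2 difference was 1.79 (SE 0.36, 95% interval 0.95 to 2.63, adjusted p = 0.0886), so it did not pass over all 13966 probe sets. The difference fell to 1.4 (adjusted p = 0.225) with RNA integrity as a covariate. The log2 3-prime over 5-prime ratio was 1.32 on otd-uvi replicate 1, against 1.68 and 1.88 on otd-uvi replicates 2 and 3. Without any 1 array the difference was 1.6 to 2.08.

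The dimmer PPO2 probe set (141850_at) had signals of 19.3, 8.61 and 22.5 on the otd-uvi arrays, against 10.7 and 9.82 on the Canton S arrays. The groups overlapped, and 2 of the 3 otd-uvi values were under the controls. Its log2 difference was 0.40 (95% interval -0.37 to 1.16, adjusted p = 0.60), where probe sets of like signal had a median of 0.28. With both probe sets averaged, PPO2 was at 1.09 (adjusted p = 0.147). The probe sequences were not used here, so which transcripts each probe set reports was not tested.

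PPO1 (151955_at) had signals of 16.4, 13.6 and 19.0 on the otd-uvi arrays, against 8.25 and 16.3 on the Canton S arrays. Canton S replicate 2 lay within the otd-uvi range, and 1 array of each strain was under the controls. The log2 difference was 0.29 (95% interval -0.39 to 0.97, adjusted p = 0.673), close to the 0.28 of probe sets of like signal, and it was -0.0053 without Canton S replicate 1.

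PPO3, the third prophenoloxidase gene, which is known from lamellocytes, resembled the brighter PPO2 probe set. Its signals were 50.9, 43.7 and 42.5 on the otd-uvi arrays, against 9.66 and 8.62 on the Canton S arrays. The groups were far apart, and 1 of the Canton S values was under the controls. Its log2 difference was 1.65 (SE 0.27, adjusted p = 0.0535). It passed with a floor in place of the pseudocount (adjusted p = 0.0442) and without the intensity trend (adjusted p = 0.0339), and in no fit with 1 array left out (adjusted p of 0.127 to 0.297). Whether probes for one prophenoloxidase also bind the transcripts of another was not tested.

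The remaining genes of melanization and crystal cell fate were closer to 0. Of 14 measured genes on this list, PPO3 included, none passed and 8 were above 0, with a median difference of 0.061. Of these genes 2 above 0 and 1 below 0 had an unadjusted p under 0.05, against 15.0% of all probe sets. Hayan, a serine protease that activates prophenoloxidase, had signals of 72.6, 80.6 and 94.5 on the otd-uvi arrays, against 48.6 and 37.3 on the Canton S arrays, which put it at 0.83 on the log2 scale (SE 0.24, adjusted p = 0.196). The melanin pathway gene yellow-f was at 0.60 (SE 0.30, adjusted p = 0.410). Sp7, another activating protease, was at 0.072 and lz, the Runx factor that specifies crystal cells, at 0.18, both with overlapping groups (adjusted p of 0.928 and 0.830). The gene below 0 with an unadjusted p under 0.05 was ple, at -0.45 (adjusted p = 0.293). Also below 0 were peb at -0.33 and klu at -0.26 (adjusted p of 0.826 and 0.696). Sp7, lz, ple, peb and klu were named after their values were seen.

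Col4a1 and vkg encode the collagen IV chains of the fly, and they lie next to each other on arm 2L with no protein-coding gene between them. The signals of Col4a1 (153378_at) were 802, 1040 and 831 on the otd-uvi arrays, against 729 and 762 on the Canton S arrays. The lowest otd-uvi array was just above the higher Canton S array. The log2 difference of Col4a1 was 0.25 (SE 0.15, 95% interval -0.10 to 0.59, adjusted p = 0.478). For vkg, viking (143868_at), the signals were 537, 654 and 668 on the otd-uvi arrays, against 533 and 631 on the Canton S arrays. The groups overlapped almost fully. The log2 difference of vkg was 0.086 (SE 0.15, 95% interval -0.27 to 0.44, adjusted p = 0.821), and it was -0.034 without Canton S replicate 1. The log2 ratio of Col4a1 to vkg within an array was 0.58, 0.67 and 0.32 in otd-uvi, against 0.45 and 0.27 in Canton S, a difference with a two-sided exact permutation p of 0.4.

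Both collagen probe sets were in the brightest decile on the array, and their intervals were the narrowest of the 10. Log2 differences above 0.44 for vkg and above 0.59 for Col4a1 lie outside these intervals.

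Other genes of the basement membrane were mostly near 0. Of 21 measured genes on this list, none passed the threshold above 0 and 1 passed below 0. The median difference was 0.11, and 13 were above 0. The laminin genes LanA, LanB1 and LanB2 were at 0.17, 0.16 and 0.20, and SPARC, a collagen-binding protein made by hemocytes, at 0.24, with adjusted p of 0.651, 0.751, 0.731 and 0.444. Of the other listed genes, wb was at 0.082, trol at -0.35 and Ppn at -0.185 (adjusted p of 0.912, 0.683 and 0.818). Mmp2 was at 0.77 (SE 0.33, adjusted p = 0.338), with no overlap between the groups. All of these genes were named after their values were seen. The gene that passed below 0 was mys, which encodes the beta integrin chain that links cells to the matrix. Its signals were 193, 213 and 171 on the otd-uvi arrays, against 405 and 408 on the Canton S arrays. The values of the strains were well apart, and the log2 difference was -1.05 (SE 0.15, 95% interval -1.41 to -0.70, adjusted p = 0.0347). It stayed at -1.13 to -0.98 without any 1 array, with adjusted p of 0.0847 to 0.247, and it had an adjusted p = 0.148 with RNA integrity as a covariate and 0.0831 without the intensity trend.

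Among the members of this list that did not pass, Timp, the inhibitor of matrix metalloproteases, had signals of 124, 175 and 169 on the otd-uvi arrays, against 286 and 306 on the Canton S arrays. Its log2 difference was -0.90 (SE 0.19, adjusted p = 0.0994). Cow, a secreted heparan sulfate proteoglycan, was at -0.79 (SE 0.19, adjusted p = 0.144). The 3 genes of this list with an unadjusted p under 0.05, of 21 measured, were mys, Timp and Cow, a share near the 15.0% of all probe sets.

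Regulators of hemocyte fate and survival gave no call among 16 measured genes, with a median difference of -0.0067 and 1 unadjusted p under 0.05. This was zfh1, a zinc finger and homeodomain repressor. Its signals were 78.5, 87.2 and 95.2 on the otd-uvi arrays, against 7.31 and 28.98 on the Canton S arrays, where replicate 1 was under the controls. The log2 difference of zfh1 was 1.99 (SE 0.39, 95% interval 1.07 to 2.92, adjusted p = 0.0856). It was 1.36 without Canton S replicate 1 and 2.63 without Canton S replicate 2. The growth factor genes Pvf1 and Pvf3, ligands of the receptor Pvr on hemocytes, were at 0.66 and -0.52 (adjusted p of 0.343 and 0.366). The lineage genes ush, gcm and gcm2 were under the controls on all 5 arrays. Lamellocyte genes (7 measured, none past the threshold, 1 unadjusted) had a median difference of -0.15. The largest of them were bnl at 0.42, under the controls on every array, Treh at -0.42 and ItgaPS5 at 0.37, also under the controls (adjusted p of 0.453, 0.327 and 0.35).

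Markers of other tissues of the head held no gene past the threshold. The counts of unadjusted p under 0.05 below stand against 15.0% of all probe sets. Of 11 fat body genes 1 above 0 and 2 below 0 had an unadjusted p under 0.05, with a list median of 0.040. The summed fat body signal was 3431 to 7136 on the otd-uvi arrays and 6671 and 7237 on the Canton S arrays. The largest fat body differences were Yp3 at -1.54, apolpp at -1.01 and Lsp2 at -0.71 (adjusted p of 0.0731, 0.0566 and 0.383). Yp3 was under the controls on otd-uvi array 1. Apoltp, named after its values were seen, was at 0.59 (SE 0.23, adjusted p = 0.290). Differences above 0 were found for 6 of the 11. Of the 11, 6 were above the controls on all otd-uvi arrays and 8 on both Canton S arrays. All 8 muscle genes were above the controls. Act88F was at 1.40, bt at -0.41 and Act79B at 0.29 (adjusted p of 0.227, 0.597 and 0.431), of which Act88F alone had an unadjusted p under 0.05, and the summed muscle signal was 26140 to 30430 in otd-uvi and 27140 and 27260 in Canton S. Of 7 neuronal genes 4 below 0 and 1 above 0 had an unadjusted p under 0.05, with a list median of -0.89 and sums of 1456 to 1831 in otd-uvi and 1778 and 2219 in Canton S. All 7 were above the controls on both Canton S arrays, and all but brp on all otd-uvi arrays. The largest neuronal differences were VGlut at -1.49, Syn at -1.24 and nSyb at -0.93 (adjusted p of 0.202, 0.0650 and 0.122). Of 9 glial genes 2, both below 0, had an unadjusted p under 0.05, with a median of 0.053 and sums of 3011 to 3726 in otd-uvi and 4290 and 4676 in Canton S. Eaat2 was at -1.08 and Gs2 at -0.53 (adjusted p of 0.0934 and 0.219), and gcm at 0.48 was the only glial gene under the controls. Of 7 cuticle genes 2 above 0 and 1 below 0 had an unadjusted p under 0.05, with a median of -0.052 and sums of 9537 to 10300 in otd-uvi and 9912 and 10140 in Canton S. The largest cuticle differences were resilin at -0.63, Cpr47Ea at 0.59 and Cpr97Ea at 0.54 (adjusted p of 0.0856, 0.219 and 0.254). The part of these tissues in the differences of the hemocyte and collagen genes was not tested.

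Among the otd-uvi arrays, replicate 2 was the highest for 6 of the 10 probe sets, replicate 3 for 3 and replicate 1 for 1. In Canton S, replicate 2 was above replicate 1 for 7 of the 10, while Pxn and both PPO2 probe sets were higher in replicate 1. Under 15 other fits NimC1, crq, Pxn, Col4a1 and both PPO2 probe sets kept the sign of their difference wherever a value was given. Hml, srp, PPO1 and vkg turned sign in at least 1. Where the groups do not overlap, leaving out 1 array cannot turn the sign. That holds for NimC1, crq, Pxn, Col4a1 and the brighter PPO2 probe set. The filter on dim probe sets and the fit without the intensity trend leave each difference as it is. The replicate block gave the same differences as the fit without otd-uvi replicate 3.

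**Figure D4:**
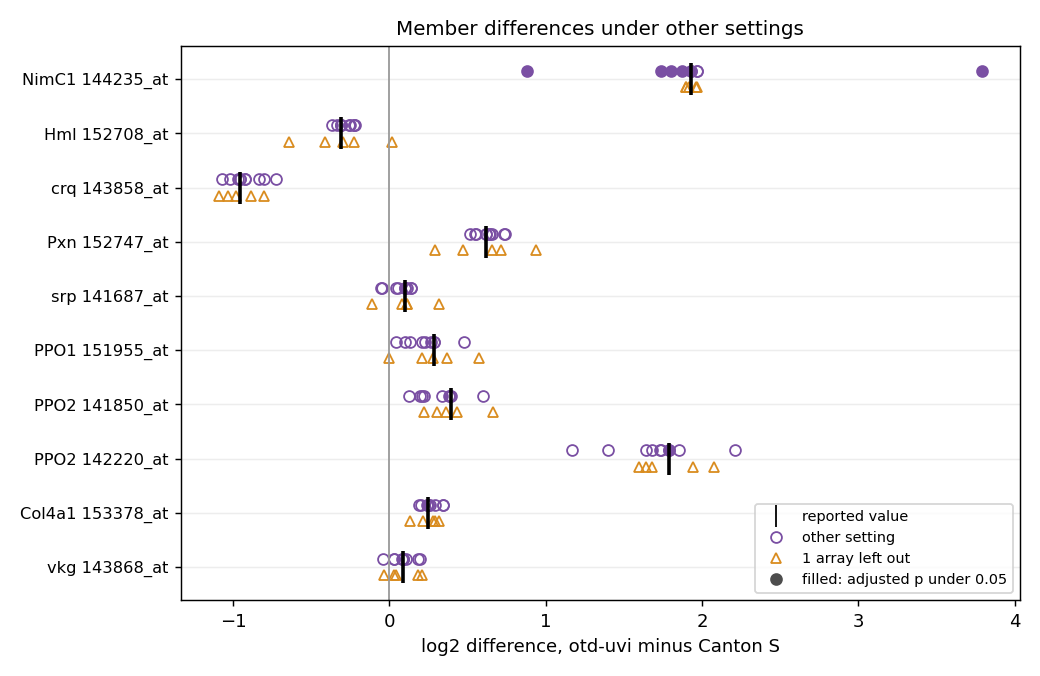
Log2 difference of each probe set as reported (black bar), under other settings (purple circles) and with 1 array left out (orange triangles), filled where the adjusted p was under 0.05. NimC1 ranges from 0.88 with a larger pseudocount to 3.79 with a floor in place of the pseudocount, and Hml, srp, PPO1 and vkg reach or cross 0.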

How the data were processed

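Total RNA of pupal heads was labelled with biotin and hybridised to Affymetrix arrays, 1 per sample. The authors deposited MAS5 signals, intensities on a linear scale, per the submitters' processing notes; version, scaling target and detection calls are not given in the sources used here. A platform annotation table gave 1 gene for 12443 of 13966 probe sets, several for 327 and none for 1196, and 12394 names were updated by gene identifier. The 44 controls were left out of the tests. Gene order comes from the RefSeq annotation, and positions are not printed because the build behind the array is not given in the sources used here.

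Signals were taken as log2(signal + 8), 8 being the rounded 20th percentile of all signals. Strain was the only term in limma 3.58.1 (R 4.3.3; lmFit, eBayes with an intensity trend), with Benjamini-Hochberg adjustment over 13966 probe sets and a threshold of 0.05. Residual degrees of freedom were 3, with 4.16 from the prior. The number of arrays limits the precision. The fit was also run on simulated data whose changes were placed in the brighter probe sets only. It therefore gives no check on dim probe sets such as that of NimC1. Where a listed gene had several probe sets, the one with the highest mean stood for it. The text names all members, from each of 10 lists of related genes and other tissues those past the threshold and the 3 with the largest difference, and neighbours and near copies of members; oc, ush, gcm2 and brp were named for their roles after their values were seen, and other exceptions are marked where they stand. Alternatives covered normalization, pseudocount, floor, a filter on dim probe sets, intensity trend, array weights, an RNA integrity covariate, a replicate block and leaving out each array. The members and lists were chosen with earlier results of these data known. Replicate numbers were treated as labels only.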

Additional observations from a re-analysis of the deposited data

Results flagged for a closer look

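The mouse and yeast control probe sets were left out of limma, but the brightest of them set the background level. That level was higher on every otd-uvi array than on either Canton S array. The controls as a group also gave more signal in otd-uvi. Their median signal was 7.39 ± 0.473 in otd-uvi (SD, n = 3) and 3.38 ± 0.433 in Canton S (SD, n = 2), and the two-sided exact permutation p was 0.1, which is as low as this design can reach. NimC1 differed from the brightest of these controls by 8.95, 21.5 and 12.9 signal units on the otd-uvi arrays, against -7.25 and -6.65 on the Canton S arrays. The part of this background in the values of dim probe sets was not tested.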

How the results depend on the processing

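Besides the main fit, 15 alternatives were run. The count of all probe sets past the threshold, 108, was 208 without the dimmest 40%, 8 with the RNA integrity covariate, 1 with the replicate number as a block and 2 to 22 without 1 array. The members' count, 1, was 0 with the covariate, with the block and without any 1 array. NimC1 was too dim for the filtered fit, which keeps PPO2, PPO3 and zfh1 through their otd-uvi signal, so their passing there adds no support. In the 7 fits in which it passed, it ranged from 0.88 to 3.79 (adjusted p of 0.0173 to 0.0333). Of the other listed genes 1 passed, against 2 with median centring, with a floor and without the intensity trend, 7 without the dimmest 40%, and 0 with the covariate, with the block and without any 1 array. The numbers pair no samples by the labels, and deviations of same-numbered arrays correlated at -0.0045 and 0.12. The sign of srp turned under quantile normalization (-0.047) and cyclic loess (-0.057), and that of vkg with the covariate (-0.041). Without 1 array the ranges were -0.64 to 0.019 for Hml, -0.11 to 0.32 for srp, -0.0053 to 0.58 for PPO1 and -0.034 to 0.21 for vkg. The causes were not tested. A lone Canton S array was taken to spread like the otd-uvi group. Signal near the controls limits NimC1, srp, PPO1 and both PPO2 probe sets, the brighter one through its Canton S signals.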

Other observations

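The protein-coding genes that lie up to 3 places to either side of the members in the reference annotation were examined as a group. Of 41 probe sets for 38 such genes, none passed in limma and 10 had an unadjusted p under 0.05, 5 above 0 and 5 below 0. That is 24.4%, against 15.0% of all probe sets, and the median difference was 0.021. The potassium channel gene Elk, near PPO1 and named after its values were seen, had 2 probe sets. The signals of the first were 7.996, 15.7 and 10.96 on the otd-uvi arrays, against 49.9 and 67.2 on the Canton S arrays, and those of the second were 4.21, 14.4 and 14.4 on the otd-uvi arrays, against 43.5 and 35.7 on the Canton S arrays. For both, otd-uvi replicates 1 and 3 were under the controls, so the log2 differences of -1.77 and -1.37 (adjusted p of 0.0650 and 0.161) rest on values near background. CG14949, 3 places from Pxn and also named after its values were seen, had the opposite sign. Its signals were 31.9, 41.3 and 31.6 on the otd-uvi arrays, against 9.17 and 3.265 on the Canton S arrays, both under the controls. In limma CG14949 was at 1.62 (SE 0.31, adjusted p = 0.0824).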
